A study of Mus musculus with 36 samples.

Results

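The comparison described here sets the livers of control mice taken late in the dark phase, at zeitgeber time 22 (ZT22), against those taken 12 h apart, late in the light phase (ZT10). Zeitgeber time counts hours from lights on in a cycle of 12 h light and 12 h dark. The members are 6 of the 36 sequenced libraries, chosen by genotype and sampling time alone: 3 mice at ZT10 and 3 at ZT22, each group named by letters a, b and c. All were male, 2 to 3 months old and fed normal chow ad libitum. The mice called wild type are heterozygous for the thyroid hormone receptor beta gene (THRB+/-), so the control group itself carries 1 altered allele in every cell; the study's other 18 libraries come from THRB-/- mice at the same 6 times, and were used here for the spread between mice and for a comparison between genotypes. Poly(A) RNA was sequenced from non-directional libraries, so reads of overlapping genes on opposite strands cannot be told apart. Of 54532 genes in the count table, 17994 had at least 100 counts over the 36 libraries and were tested.

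The liver clock is a feedback loop in which CLOCK or NPAS2 pairs with BMAL1 (encoded by Arntl) on E-box sequences and drives the genes of its own repressors, the PER and CRY proteins, and of the nuclear receptors REV-ERB alpha and beta (Nr1d1, Nr1d2). REV-ERBs in turn repress Arntl and Nfil3 through ROR elements, where the RORs activate. A further layer, the PAR-bZIP factors DBP, TEF and HLF and their competitor NFIL3, acts on D-boxes and carries time of day to enzymes of lipid, bile acid, sugar and drug metabolism. Mice feed mostly in the dark, so ZT22 falls late in the feeding phase and ZT10 late in the resting phase.

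The 6 libraries held between 30613456 and 39913574 counts, and all 3 ZT22 libraries were shallower than all 3 ZT10 libraries (ratio of means 0.876, exact two-sided permutation test of 3 against 3, p = 0.1, the smallest this design allows). Summed hepatocyte markers, among them albumin, were at 83820 ± 4217 CPM (counts per 1000000 counts of the library after TMM scaling; SD, n = 3) at ZT10 and 88690 ± 3454 at ZT22, and 0 of 7 were called. Markers of Kupffer cells summed to 344.9 ± 132 CPM at ZT10 and 346 ± 74.3 at ZT22, and 0 of 11 were called. Sums over markers of sinusoidal endothelial cells (ratio 1.24, 1 of 10 called, Clec4g), stellate cells (1.22, 1 of 11, Des) and cholangiocytes (1.24, 1 of 5 tested, Sox9) were higher in all 3 ZT22 libraries, and their part in the results was not tested. In bulk liver, fewer cells of a type and less RNA per cell cannot be told apart. Thrb read 25.9, 27.8 and 29.6 at ZT10 and 27.02, 30.7 and 27.9 at ZT22 in CPM. Its mean was 27.0 to 31.1 CPM over the 6 times in control liver and 29.8 to 33.4 in the libraries labelled knockout, so its gene count gives no check of genotype.

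A large share of the liver transcriptome differed between the ZT10 and ZT22 mice. In both genotypes the numbers in the sample descriptions fall in separate runs at ZT2 to ZT10 and at ZT14 to ZT22. What these numbers stand for is not given, and whether they go with part of the difference was not tested. By the quasi-likelihood test of edgeR, Benjamini-Hochberg adjusted over all tested genes, 2648 genes (14.7%) passed an adjusted p of 0.05, of which 1249 (6.94%) were higher and 1399 (7.77%) lower at ZT22. Without ZT22 mouse c the count was 1696. Genes higher at ZT22 reached larger sizes: 121 were over 4-fold higher and 65 over 4-fold lower, while the median absolute log2 fold change of called genes was 0.62. The 3 ZT22 and 3 ZT10 libraries did not overlap for 5311 genes (29.5%). All fold changes below are ZT22 over ZT10 on the log2 scale with the standard error (SE) of the fit, a gene given as so many times as high has the fitted fold rather than the ratio of means, and levels are CPM per mouse in the order a, b, c.

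Of the 15 core clock genes, 5 were called higher, 8 lower and 2 (Rora, Bhlhe40) did not pass. Against a background of 14.7% of all genes, 13 of 15 were called, with a median log2 fold change of -0.69 beside -0.00 over all genes. The activating limb was high at ZT22. Arntl (chr7:113207465-113314126), encoding BMAL1, read 1.57, 0.839 and 0.621 at ZT10 and 26.5, 31.4 and 27.1 at ZT22. Every ZT22 mouse lay far above every ZT10 mouse, and the fitted level was 27.4 times as high (log2 fold change 4.78 ± 0.32, adjusted p = 4.84e-11). Npas2 (chr1:39193731-39363236), the CLOCK paralogue, read 0.154, 0.28 and 0.0621 at ZT10 and 7.104, 11.3 and 10.96 at ZT22. It was close to absent at ZT10, with 17 counts in the 3 libraries together against 902 at ZT22, a ratio of 60.6 with a 95% counting interval of 37.6 to 105 (log2 fold change 5.86 ± 0.86, adjusted p = 1.65e-05). Clock itself read 15.7, 14.01 and 8.98 at ZT10 and 36.5, 40.2 and 37.9 at ZT22 and stood higher in each ZT22 mouse (1.56 ± 0.14, adjusted p = 5.24e-09). Rora, encoding the activator ROR alpha, was at 53.2 ± 3.62 at ZT10 and 52.2 ± 4.91 at ZT22 (mean ± SD, adjusted p = 0.939).

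The repressors divided. Cry1 (chr10:85131700-85185064), a late repressor of the loop, read 14.5, 8.85 and 12.02 at ZT10 and 52.8, 50.05 and 37 at ZT22 and was 3.94 times as high at ZT22 (1.98 ± 0.20, adjusted p = 4.04e-08), whereas its paralogue Cry2 read 51.8, 55.8 and 56.8 at ZT10 and 44.5, 33.97 and 29.7 at ZT22 and was lower (-0.60 ± 0.14, adjusted p = 0.00357). The REV-ERB genes were among the deepest falls of all. Nr1d1 (chr11:98767932-98775333) read 47.2, 98.2 and 52.96 at ZT10 and 1.86, 2.14 and 4.12 at ZT22, 24.4 times as high at ZT10 (-4.61 ± 0.34, adjusted p = 2.69e-10). Nr1d2 (chr14:18204054-18239127) read 80.6, 101 and 90.9 at ZT10 and 9.16, 5.69 and 6.15 at ZT22 (-3.70 ± 0.29, adjusted p = 7.07e-10). Ciart (chr3:95878503-95882251), encoding the repressor CHRONO, read 38.9, 33.5 and 43.98 at ZT10 and 1.33, 1.41 and 1.505 at ZT22, with little spread among the ZT22 mice, and was 27.4 times as high at ZT10 (-4.77 ± 0.56, adjusted p = 6.16e-07). The Period genes fell to unequal degrees: Per3 read 46.4, 59.8 and 60.8 at ZT10 and 9.43, 8.09 and 3.89 at ZT22 (-2.96 ± 0.34), Per1 read 96.2, 58.9 and 91.5 at ZT10 and 15.9, 14.7 and 10.8 at ZT22 (-2.58 ± 0.60) and Per2 read 58.98, 53.5 and 61.5 at ZT10 and 35.5, 35.3 and 29.6 at ZT22 (-0.79 ± 0.25). The groups did not overlap for any of the 3, yet the call of Per2 was lost when any 1 of 5 libraries was left out, all but ZT10 mouse b. Bhlhe41 (DEC2) read 4.16, 5.65 and 5.901 at ZT10 and 1.23, 1.44 and 1.01 at ZT22 and fell (-2.09 ± 0.43), while Bhlhe40 (DEC1) overlapped between the groups, at 144 ± 45.5 at ZT10 and 89.4 ± 39.1 at ZT22 (mean ± SD), and passed only without ZT22 mouse b.

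**Figure D1:**
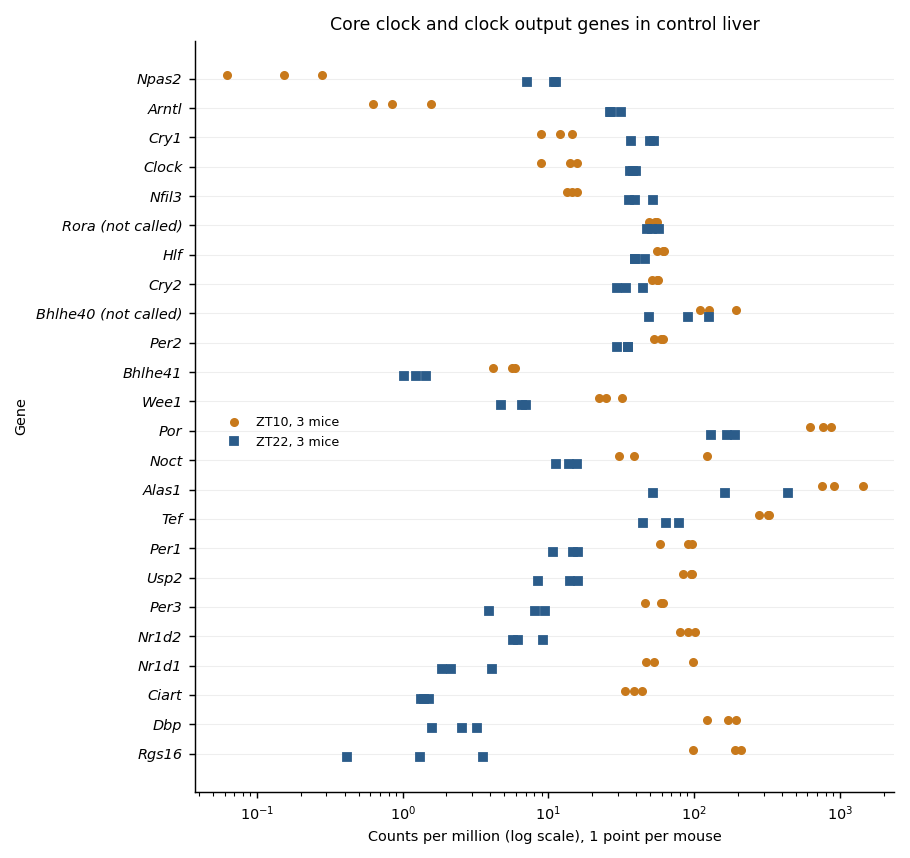
Level of core clock and clock output genes in every control mouse (CPM on a log axis; circles ZT10, squares ZT22, 3 mice each), ordered by log2 fold change. Npas2, Arntl, Cry1, Clock and Nfil3 lie to the right at ZT22 and the other called genes to the left; Rora and Bhlhe40 were not called.

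Some proximal promoters of these genes hold elements through which the loop is known to run. Promoters are RefSeq entries on GRCm38.p6, from 250 bases before to 50 after the annotated start, and the search covered both strands for the E-box CACGTG, the D-boxes TTATGTAA and TTACGTAA and the ROR elements ANTAGGTCA and ANTGGGTCA. Among 32851 promoters, 7.15% held the E-box, 1.06% a D-box and 1.45% a ROR element. By gene, the E-box was found for 15.2% of genes called lower, 11.4% of those called higher and 10.6% of those not called. ROR elements were found for 1.59%, 2.33% and 1.28% of the same 3 classes, and D-boxes for 1.41%, 0.74% and 0.902%. Among called core clock genes with a promoter entry, the E-box was present in 3 of 7 that fell (Per1, Ciart, Bhlhe41) and in 1 of 4 that rose (Cry1). A D-box was present in 1 of the 7 that fell (Per3) and 0 of the 4 that rose, and a ROR element in 0 and 1 (Arntl). Of 8 clock output genes that fell, 1 held an E-box (Tef), 0 a D-box and 0 a ROR element. The 1 that rose, Nfil3, held a ROR element only. These stretches are printed because they carry the matches, 5′ to 3′ on the gene's strand with 30 bases on each side (fewer at the annotated start, and 10 for Arntl), lower case with the matched element in capitals. First come genes with E-boxes.
Ciart, chr3:95882237-95882374, minus strand: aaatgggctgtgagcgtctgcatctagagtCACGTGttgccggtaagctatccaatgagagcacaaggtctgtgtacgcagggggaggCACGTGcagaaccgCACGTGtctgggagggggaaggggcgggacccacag
Per1, chr11:69098753-69098818, plus strand: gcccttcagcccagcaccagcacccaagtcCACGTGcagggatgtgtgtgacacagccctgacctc
Bhlhe41, chr6:145865538-145865603, minus strand: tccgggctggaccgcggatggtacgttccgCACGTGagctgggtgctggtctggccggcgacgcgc
Tef, chr15:81802516-81802581, plus strand: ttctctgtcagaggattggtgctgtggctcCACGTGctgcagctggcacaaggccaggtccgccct
Tef, chr15:81811246-81811311, plus strand: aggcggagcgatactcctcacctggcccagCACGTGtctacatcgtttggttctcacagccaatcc
Cry1, chr10:85185079-85185144, minus strand: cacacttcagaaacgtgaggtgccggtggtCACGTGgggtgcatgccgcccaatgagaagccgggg
Ciart has 3 matches in 138 bases. Cry1 shares the E-box with Ciart and Per1 and moved the other way. Per3, which has no E-box match in this window, has a pair of D-boxes.
Per3, chr4:151044786-151044900, minus strand: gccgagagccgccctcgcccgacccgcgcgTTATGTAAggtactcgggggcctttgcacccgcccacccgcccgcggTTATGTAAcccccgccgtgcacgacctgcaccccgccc
Among called genes of these lists with a promoter entry, Arntl and Nfil3, both higher at ZT22, are those with a ROR element. The Arntl match lies just downstream of the annotated start.
Arntl, chr7:113207529-113207557, plus strand: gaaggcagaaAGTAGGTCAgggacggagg
Nfil3, chr13:52981040-52981081, minus strand: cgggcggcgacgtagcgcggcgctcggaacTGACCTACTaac
A match is a description of the letters, not evidence of binding in these mice.

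The clock output list moved almost as a block: 9 of 10 members fell (background 7.77%), 1 rose (background 6.94%), and the median log2 fold change was -2.23. Dbp (chr7:45705088-45710203), the founding PAR-bZIP factor, read 123, 194 and 171 at ZT10 and 3.22, 2.56 and 1.603 at ZT22. The fitted ZT10 level was 65.9 times that at ZT22 (-6.04 ± 0.51, adjusted p = 2.03e-09). Tef read 279, 324 and 326 at ZT10 and 78.5, 64.2 and 44.5 at ZT22 (-2.31 ± 0.20), and Hlf, the shallowest of the 3, read 55.8, 61.6 and 62.03 at ZT10 and 45.9, 39.4 and 39.4 at ZT22 (-0.52 ± 0.16; the call was lost without ZT10 mouse b or c or ZT22 mouse b or c). Nfil3 (chr13:52967209-52981073), the repressor that competes with them, moved in the opposite direction at 15.7, 14.6 and 13.4 at ZT10 and 39.2, 35.99 and 52.5 at ZT22 (1.55 ± 0.18, adjusted p = 8.61e-07). No ZT10 mouse reached any ZT22 mouse for Nfil3.

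Rgs16 (chr1:153740349-153745468), which speeds the shut-off of G protein signals, showed the deepest fall of the named genes. It read 210.4, 192 and 97.9 at ZT10 and 3.58, 0.415 and 1.31 at ZT22, 94.6 times as high at ZT10 (-6.56 ± 0.89, adjusted p = 5.5e-06). Usp2, a deubiquitinase, read 95.5, 83.6 and 97.3 at ZT10 and 15.9, 14.2 and 8.44 at ZT22 (-2.85 ± 0.38) and Wee1, the kinase that holds back mitotic entry, read 22.4, 25.1 and 31.99 at ZT10 and 7.04, 6.55 and 4.74 at ZT22 (-2.11 ± 0.33). Por, the electron donor to all microsomal cytochrome P450 enzymes, read 762, 624 and 869 at ZT10 and 169, 191 and 132 at ZT22 (-2.20 ± 0.19, adjusted p = 2.28e-09). Alas1, the first enzyme of haem synthesis, was scattered at ZT22, with 756, 909 and 1436 at ZT10 and 52.5, 442 and 162 at ZT22. Its call (-2.24 ± 0.75) was lost without ZT10 mouse b or c or ZT22 mouse a or c. The deadenylase gene Noct read 122, 30.6 and 38.6 at ZT10 and 15.7, 11.3 and 13.9 at ZT22, and its call was lost without ZT10 mouse a, the highest of the 6.

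Outside the clock lists, the largest rises formed a varied set of genes. Tubb2a (chr13:34074274-34078007), a beta tubulin, read 19.2, 16.9 and 11.8 at ZT10 and 183, 206 and 200 at ZT22, 12.3 times as high at ZT22 (3.62 ± 0.33, adjusted p = 6.64e-09). Its near-identical neighbour Tubb2b had 3 counts in the ZT10 libraries together and 432 at ZT22, a ratio of 164 with a 95% counting interval of 55.9 to 800.3, and reads of the 2 genes may be shared. Cdkn1a (chr17:29090976-29100727), the cell cycle inhibitor p21, read 1.26, 0.652 and 1.37 at ZT10 and 34.7, 22.02 and 28.3 at ZT22 (4.69 ± 0.60, adjusted p = 2.8e-06). The rule that picked the largest changes asked for no overlap between the groups, so the separation of these genes was set in advance. Slc34a2, a sodium-phosphate cotransporter, read 0.154, 0.0932 and 0.0311 at ZT10 and 4.28, 5.08 and 7.69 at ZT22 (5.83 ± 0.71). Clic3, an intracellular chloride channel gene, read 4.598, 0.932 and 1.49 at ZT10 and 31.4, 27.3 and 31.8 at ZT22 (3.65 ± 0.62), and Loxl4, of the lysyl oxidase family, read 0.514, 0.621 and 0.932 at ZT10 and 5.15, 10.3 and 18.9 at ZT22 (4.06 ± 0.54). Loxl4 varied widely among the ZT22 mice.

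Elovl3 (chr19:46131897-46135307), an elongase of very long chain fatty acids, read 39.9, 71.9 and 26.7 at ZT10 and 915, 679.5 and 843 at ZT22 (4.14 ± 0.67, adjusted p = 5.63e-05). Pitx3, a homeobox gene, read 1.05, 1.24 and 0.528 at ZT10 and 33.7, 19.8 and 22.3 at ZT22 (4.74 ± 0.71). It lies tail to tail with Elovl3 on the opposite strand with 377 bases between their annotated ends. Whether reads from beyond the end of Elovl3 enter its count was not tested, and non-directional libraries cannot separate the strands.

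Further large falls belonged mostly to metabolism. Lpin1 (chr12:16535669-16610966), a phosphatidate phosphatase and coactivator, read 469, 393 and 265 at ZT10 and 51.7, 51.5 and 41.5 at ZT22 (-2.96 ± 0.44, adjusted p = 2.15e-05). Gpcpd1, which breaks down glycerophosphocholine, read 151, 194 and 103 at ZT10 and 25.7, 29.3 and 20.1 at ZT22 (-2.58 ± 0.24). Both were picked by the same rule, which asked for no overlap between the groups. A930033H14Rik, a predicted protein-coding gene, read 12.2, 12.8 and 10.4 at ZT10 and 1.73, 1.31 and 1.44 at ZT22 (-2.98 ± 0.48). Ppp1r3g, which directs protein phosphatase 1 to glycogen, had 353 counts at ZT10 and 26 at ZT22, 25 of them in mouse a. Its call (-3.55 ± 1.07) was lost without ZT10 mouse c or ZT22 mouse b or c.

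Cholesterol synthesis was the clearest metabolic rise. Of 24 list members, 9 were called higher, 0 lower and 15 did not pass (background 6.94% higher), with a median log2 fold change of 0.59. With 1 library left out, the number called higher ran from 6 (without ZT10 mouse c) to 13 (without ZT10 mouse b). The called genes span the pathway. Hmgcs1 (chr13:119690379-119708260), which makes HMG-CoA, read 132, 178 and 107 at ZT10 and 366, 520.4 and 724 at ZT22, 3.86 times as high at ZT22 (1.95 ± 0.31, adjusted p = 5.4e-05). Mvd and Pmvk, of the mevalonate steps, read 17.96, 32.5 and 14.9 at ZT10 and 63.2, 77.5 and 102 at ZT22 and 58.3, 54.1 and 41.1 at ZT10 and 136, 143 and 113 at ZT22. Further down, Sqle, Lss and Dhcr7, which make and close squalene epoxide and finish the sterol, had log2 fold changes of 1.11, 1.19 and 1.08. Srebf2, encoding the factor that drives the pathway, read 57.5, 65.5 and 50.7 at ZT10 and 74.3, 91.5 and 92.95 at ZT22 (0.58 ± 0.12, adjusted p = 0.00157). For all 9 the highest of the 6 control times was ZT22, a time that being called higher there favours.

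Fatty acid genes did not move together. Beside 6.94% higher and 7.77% lower over all genes, 4 of 23 lipogenesis genes rose and 3 fell: the elongase Elovl5 read 302, 340.3 and 265 at ZT10 and 777, 649 and 645 at ZT22 (1.19 ± 0.28) and Agpat2, of glycerolipid synthesis, read 194, 139 and 131 at ZT10 and 299.6, 287 and 300.4 at ZT22 (0.94 ± 0.14), both without overlap, while Fasn, the fatty acid synthase, was at 960.5 ± 542 at ZT10 and 1382 ± 207 at ZT22 (mean ± SD, adjusted p = 0.545). Of 30 genes of fatty acid oxidation and ketogenesis, 5 rose and 3 fell. Pdk4 (chr6:5483351-5496309), a pyruvate dehydrogenase kinase gene, read 1.57, 2.64 and 1.24 at ZT10 and 23.5, 13.5 and 25.7 at ZT22 (3.53 ± 0.56, adjusted p = 4.7e-05). The lipid droplet coat gene Plin2 read 216, 219 and 165 at ZT10 and 432, 426 and 479 at ZT22 (1.15 ± 0.19). In the other direction Cpt1a, the gate for fatty acid entry into mitochondria, read 297, 398 and 329 at ZT10 and 142, 175 and 147 at ZT22 (-1.14 ± 0.17, adjusted p = 1.54e-05), and Bdh1, of ketone body synthesis, read 183, 243 and 256 at ZT10 and 160.2, 161 and 143 at ZT22 (-0.55 ± 0.10). The median log2 fold change was 0.04 for lipogenesis and -0.10 for oxidation and ketogenesis.

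In bile acid synthesis and transport, 3 of 18 rose and 5 fell (44.4% called, background 14.7%). The 5 that fell encode transporters, although the bile salt export pump gene Abcb11 was called higher (log2 fold change 0.38), a call lost without ZT10 mouse a or c or ZT22 mouse b or c. Abcg5 (chr17:84658234-84683011) and Abcg8, whose products together pump sterols into bile, read 117, 123 and 126 at ZT10 and 39.3, 36.02 and 30.2 at ZT22 and 132, 147 and 132 at ZT10 and 45.8, 44.9 and 36.9 at ZT22 (-1.79 ± 0.18 and -1.69 ± 0.20). Abcc2 and Slco1b2, for organic anions, fell by less (-0.80 and -0.75). Among the synthetic enzymes Cyp8b1, which sets the cholic acid share, read 191, 264 and 89.02 at ZT10 and 618, 432 and 633 at ZT22 and rose (1.63 ± 0.38, adjusted p = 0.00324). Cyp7a1, the rate-limiting enzyme, was at 172 ± 71.4 at ZT10 and 89.2 ± 21.1 at ZT22 CPM (mean ± SD; -0.94 ± 0.45, adjusted p = 0.176).

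Genes of glycogen turnover were also split by role. Of 15 tested, 6 fell and 2 rose (8 called, 53.3% beside 14.7% of all genes; 5 without ZT10 mouse c or ZT22 mouse b, and 4 without ZT22 mouse c). Gys2, the liver glycogen synthase, read 288, 341 and 420.4 at ZT10 and 156, 138 and 117 at ZT22 (-1.35 ± 0.17, adjusted p = 1.55e-06), and Ugp2, which makes its UDP-glucose substrate, read 442, 549 and 446 at ZT10 and 239, 201 and 228 at ZT22 (-1.10 ± 0.16). Ppp1r3c (chr19:36731737-36736653), another glycogen-targeting phosphatase subunit, did the opposite of Ppp1r3g: it read 32.9, 22.9 and 16.1 at ZT10 and 160.2, 150.5 and 158 at ZT22, 6.51 times as high at ZT22 (2.70 ± 0.34, adjusted p = 1.73e-06). In glucose handling 4 of 18 fell and 1 rose (27.8% called). Pck1, the gluconeogenic carboxykinase, read 4032, 3318 and 2932 at ZT10 and 1462, 523 and 826 at ZT22 (-1.87 ± 0.44), Pfkfb3 read 52.5, 36.6 and 65.04 at ZT10 and 6.21, 15.8 and 7.36 at ZT22 (-2.39 ± 0.51) and the glucose transporter gene Slc2a2 read 509, 514 and 358 at ZT10 and 243, 219 and 222 at ZT22 (-1.01 ± 0.15). G6pc, the exit step of hepatic glucose, had an adjusted p of 0.949 in the same edgeR test.

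**Figure D2:**
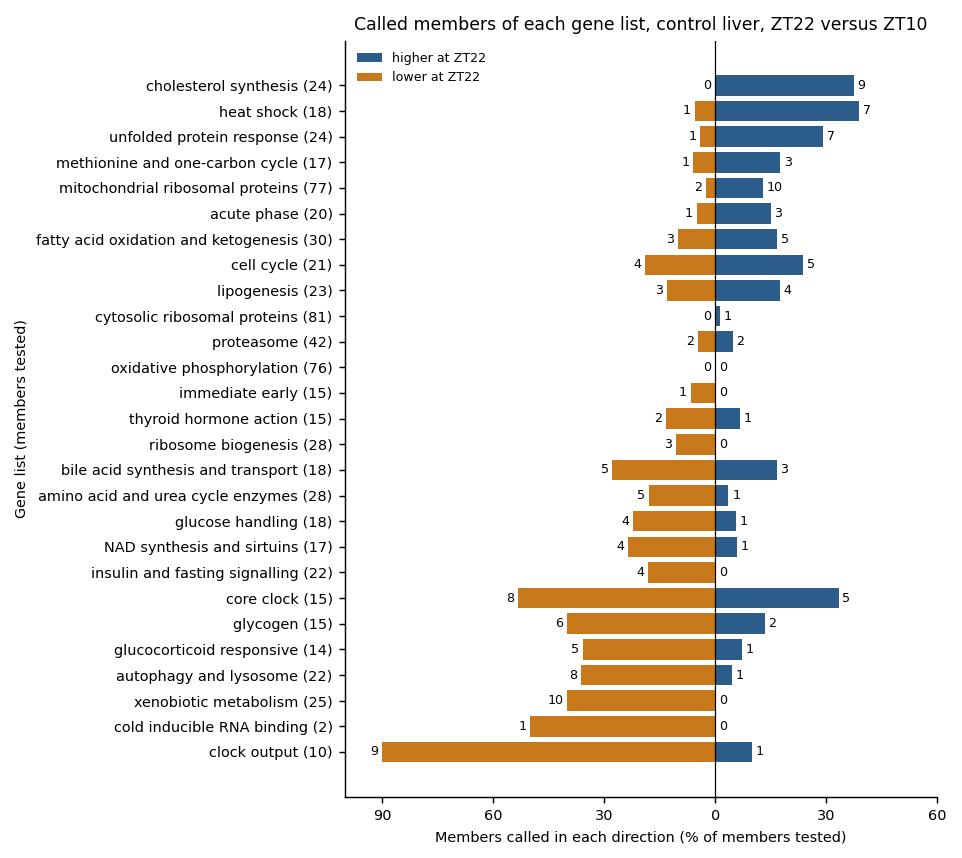
Share of tested members called higher (right) or lower (left) at ZT22 for 27 gene lists, with the number of called members at the end of each bar and of tested members in brackets. Clock output lies at the lower end with 9 of 10 lower, cholesterol synthesis at the upper end with 9 of 24 higher, and oxidative phosphorylation has 0 of 76.

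Drug and xenobiotic metabolism ran in a single direction: 10 of 25 genes fell and 0 rose (background 7.77% lower; 4 fell without ZT22 mouse c), and the median log2 fold change was -0.51. Besides Por and Alas1, Cyp2e1 read 5520, 7178 and 9997 at ZT10 and 3811, 3760 and 2831 at ZT22 (-1.13 ± 0.20, adjusted p = 0.000185). Cyp2a5, the coumarin hydroxylase, read 1116, 1086 and 1485 at ZT10 and 586, 399 and 238 at ZT22 (-1.59 ± 0.34). The xenobiotic receptor genes Nr1i3 (CAR) and Nr1i2 (PXR) had log2 fold changes of -0.91 ± 0.25 and -0.51 ± 0.14. Cyp2e1 and Cyp1a2 are also markers of pericentral hepatocytes, whose summed markers were 0.543 times as high at ZT22, and Pck1 and Sds mark periportal hepatocytes, whose sum was 0.725 times as high (p = 0.1 for each, exact permutation test). Of these 2 marker lists 3 of 10 and 2 of 9 genes fell and 0 rose, so the sums moved through those few genes.

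**Figure D3:**
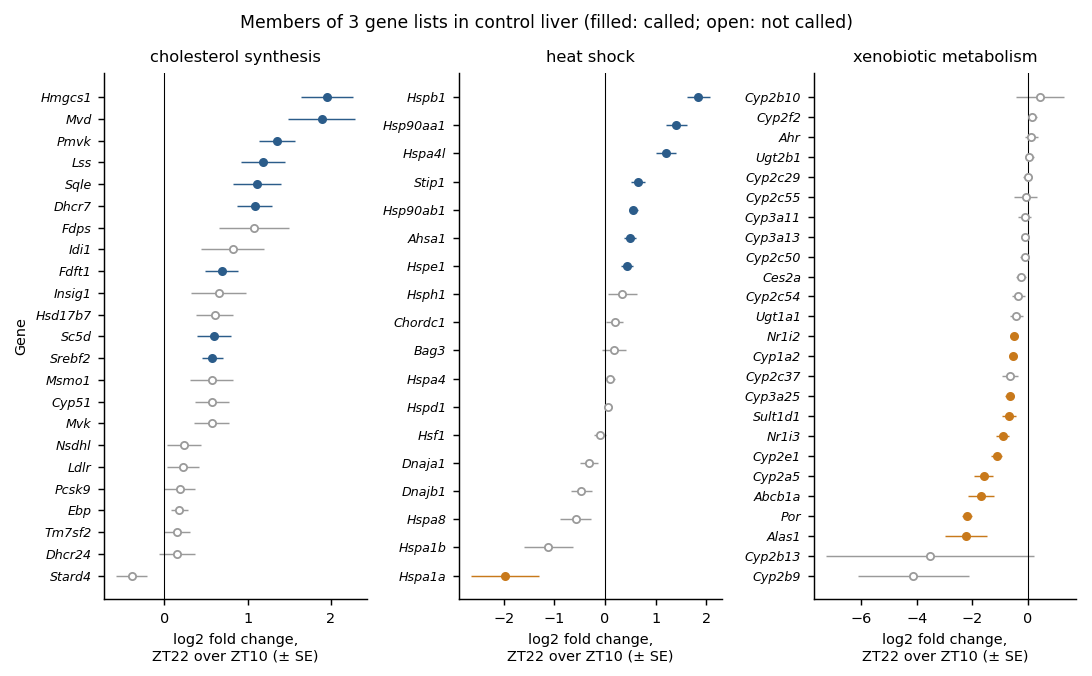
Log2 fold change (ZT22 over ZT10, ± SE, from the fit over 36 libraries) of tested members of the cholesterol synthesis, heat shock and xenobiotic metabolism lists in control liver; filled points were called. Called members of cholesterol synthesis all lie above 0 and those of xenobiotic metabolism all below, while Hspa1a is the called heat shock gene that lies opposite to the other 7.

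Of 18 heat shock genes, 7 rose, 1 fell and 10 did not pass (background 6.94% higher and 7.77% lower), with a median log2 fold change of 0.18. Hspb1 (chr5:135887919-135889563), a small heat shock protein gene, read 21.7, 15.2 and 23.6 at ZT10 and 75.9, 70.8 and 70.2 at ZT22 (1.84 ± 0.23, adjusted p = 1.49e-06), Hsp90aa1 read 121, 94.05 and 109 at ZT10 and 299, 250.4 and 312 at ZT22 (1.41 ± 0.21) and Hspa4l, an HSP70 co-chaperone, read 14.8, 12.3 and 9.47 at ZT10 and 31.4, 25.2 and 27.6 at ZT22 (1.20 ± 0.19). Their ranges at the 2 times were well apart. All 7 genes that rose had their highest control level at ZT18, before ZT22. The member that fell, Hspa1a, read 2.65, 0.28 and 0.373 at ZT10 and 0.398, 0.288 and 0.164 at ZT22 with ZT10 mouse a far above the rest. The call was lost without that mouse or any 1 of the 3 ZT22 mice, and its reads may be shared with the near-identical Hspa1b. Heat shock elements (GAANNTTC or TTCNNGAA on either strand) were found in 15.1% of all promoters, and by gene in 14.5% of genes called higher and 12.1% of those called lower and 14.6% of those not called. Of the 7 genes that rose 5 had a promoter entry and 2 held a match, and the promoter of Hspa1a, which fell, held one too. In the Hspe1 promoter 3 matches run into each other, and matches are in capitals.
Hspe1, chr1:55088029-55088106, plus strand: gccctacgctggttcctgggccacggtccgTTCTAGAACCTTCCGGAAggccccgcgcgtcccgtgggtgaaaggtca
Hspb1, chr5:135887772-135887859, plus strand: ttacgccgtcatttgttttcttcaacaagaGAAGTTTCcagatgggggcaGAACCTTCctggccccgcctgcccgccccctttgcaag

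Rbm3, a cold-inducible RNA binding protein gene, moved against the heat shock genes at 40.4, 41.4 and 55.1 at ZT10 and 27.3, 26.3 and 21.7 at ZT22 (-0.86 ± 0.14, adjusted p = 4.9e-05), and its relative Cirbp was at 35.6 ± 9.11 at ZT10 and 28.1 ± 6.84 at ZT22 (mean ± SD, adjusted p = 0.406). In the unfolded protein response list of the endoplasmic reticulum, 7 of 24 rose, 1 fell and 16 did not pass (33.3% called, background 14.7%), with a median log2 fold change of 0.45. Sdf2l1 read 17.6, 18.4 and 17.8 at ZT10 and 80.4, 43.1 and 61.5 at ZT22 (1.78 ± 0.37), the disulphide isomerase gene Pdia4 read 106, 127 and 125 at ZT10 and 281, 199.5 and 255 at ZT22 (1.04 ± 0.23) and the calreticulin gene Calr read 727, 662 and 591 at ZT10 and 1212, 1021 and 1242 at ZT22 (0.81 ± 0.15). ZT22 mouse b was the lowest of its group for each of these, and still above all ZT10 mice. Herpud1, of the degradation arm, was the exception at 559, 404 and 525 at ZT10 and 224, 149 and 160.5 at ZT22 (-1.48 ± 0.29, adjusted p = 0.000567).

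Genes of oxidative phosphorylation and of cytosolic ribosomal proteins were rarely called. Of 76 oxidative phosphorylation genes, 0 were called, and of 81 cytosolic ribosomal protein genes 1 was called, Rpl7l1 (0.31 ± 0.09; 0 without ZT10 mouse b or c or ZT22 mouse b or c), which was named after its value was seen. These shares lie below the 14.7% of all genes. Mitochondrial ribosomal protein genes had 10 higher and 2 lower of 77, beside 6.94% higher and 7.77% lower over all genes. The share called was 15.6%, near that of all genes, with called sizes of at most 0.54 on the log2 scale. Without ZT10 mouse b or c or ZT22 mouse c, 7 were called. The proteasome list had 2 higher and 2 lower of 42 (9.52% called), and 10.7% of ribosome biogenesis genes were called. Ribosome biogenesis had 3 lower of 28, among them the nucleolin gene Ncl at 198, 215 and 235 at ZT10 and 169, 152 and 161 at ZT22 (-0.42 ± 0.10; 1 of 28 without ZT10 mouse c).

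Among genes of amino acid, one-carbon and NAD metabolism, 21.4%, 23.5% and 29.4% were called, beside 14.7% of all genes. Bhmt, which remethylates homocysteine, read 1690, 1380 and 402 at ZT10 and 3158, 3058 and 4897 at ZT22 (1.68 ± 0.43); its call was lost without ZT10 mouse c or ZT22 mouse c. The one-carbon list had 3 higher and 1 lower of 17 (2 called without ZT10 mouse c or ZT22 mouse c). Nampt (chr12:32819545-32853349), the rate-limiting enzyme of NAD salvage, read 134, 146 and 197 at ZT10 and 66.8, 59.6 and 54.8 at ZT22 (-1.40 ± 0.19, adjusted p = 7.21e-06), and Acmsd, which diverts tryptophan carbon from NAD, read 32.6, 22.98 and 9.38 at ZT10 and 55.1, 61.6 and 59.8 at ZT22 (1.44 ± 0.28), so within this list (1 higher and 4 lower of 17) these 2 enzymes changed in opposite directions. Of amino acid and urea cycle enzymes 5 fell and 1 rose of 28, with 3 called without ZT10 mouse a or ZT22 mouse c. Sds, the serine dehydratase, read 469.8, 250 and 203 at ZT10 and 99.3, 110.3 and 100.1 at ZT22 (-1.57 ± 0.28) and Tdo2, the first enzyme of tryptophan breakdown, read 1617, 1695 and 1666 at ZT10 and 1035, 1063 and 1171 at ZT22 (-0.61 ± 0.09).

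Lists tied to hormones and nutrient state are read against 7.77% lower and 6.94% higher over all genes. Of 22 insulin and fasting genes 4 fell and 0 rose, a share called (18.2%) near the 14.7% of all genes. Those that fell include the forkhead factors Foxo1 at 37.5, 36.7 and 37.1 at ZT10 and 22.7, 23.3 and 21.6 at ZT22 (-0.72 ± 0.11) and Foxo3 at 65.5, 60.8 and 53.3 at ZT10 and 32.8, 34.1 and 29.8 at ZT22 (-0.89 ± 0.15). Igfbp1, a classical fasting gene, was at 22.9 ± 9.01 at ZT10 and 25.9 ± 13.8 at ZT22 (mean ± SD, adjusted p = 0.921). Of 14 glucocorticoid-responsive genes 5 fell and 1 rose, Per1 among the fallers, but 3 were called without ZT10 mouse a or b or ZT22 mouse a and 2 without ZT22 mouse c. In autophagy and lysosome, 8 of 22 fell and 1 rose. Bnip3, a mitophagy receptor gene, read 176, 176 and 202 at ZT10 and 103, 82.8 and 84.97 at ZT22 (-1.04 ± 0.11, adjusted p = 1.08e-07), and the initiating kinase gene Ulk1 read 97.5, 102 and 70.7 at ZT10 and 50.8, 56.4 and 37.9 at ZT22 (-0.90 ± 0.17).

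The thyroid hormone action list had 1 higher and 2 lower of 15 (5 called without ZT22 mouse b), a share of 20.0% beside 14.7% of all genes. Hr (chr14:70552212-70573548), a corepressor gene and known target of thyroid hormone, read 0.231, 0.652 and 0.435 at ZT10 and 5.71, 3.58 and 5.104 at ZT22, 11.01 times as high at ZT22 (3.46 ± 0.45, adjusted p = 3.58e-06). The T3 transporter gene Slc16a10 read 101, 117 and 127 at ZT10 and 67.5, 77.4 and 77.9 at ZT22 (-0.63 ± 0.16). Dio1, Thrsp and Me1, target genes in liver, had log2 fold changes of 0.25 ± 0.34, -0.20 ± 0.56 and 0.44 ± 0.29, and none passed. Immediate early genes had 1 lower of 15 (6.67%), Junb, at 26.6, 25.2 and 23.1 at ZT10 and 13.9, 11.5 and 11.2 at ZT22 (-1.03 ± 0.21). Cell cycle genes had 5 higher and 4 lower of 21 (42.9%; 5 called without ZT10 mouse c): with Cdkn1a, the replication licensing genes Mcm2 (2.31, 2.298 and 2.55 at ZT10 and 7.27, 8.41 and 5.497 at ZT22) and Mcm4 (2.903, 2.48 and 3.11 at ZT10 and 6.71, 6.65 and 6.28 at ZT22) rose, and the cyclin gene Ccne1 read 3.08, 3.14 and 5.25 at ZT10 and 0.996, 0.575 and 0.491 at ZT22 (-2.47 ± 0.37). The acute phase list had 3 higher and 1 lower of 20 (20.0%), and 0 called without ZT22 mouse b or c and 1 without ZT10 mouse a or c.

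Libraries outside the 2 groups compared, used in the fit for the spread between mice, mostly gave the same directions. In the libraries labelled knockout, ZT22 against ZT10 called 2622 genes (14.6%), of which 1767 were also called in control liver (66.7% of the control calls and 67.4% of the knockout calls), all in the same direction. Of genes higher in control liver 98.6%, and of those lower 1.07%, were higher at ZT22 in the knockout, against 49.9% of all genes. Likewise, in the control libraries of the 4 remaining times, 96.4% of the genes higher at ZT22 and 2.43% of those lower had a higher mean over ZT18 and ZT2 than over ZT6 and ZT14, against 51.5% of all genes. The difference between genotypes in the time contrast was itself tested: 0 genes (0%) passed in edgeR, with 498 at an unadjusted p under 0.05, and DESeq2 called 1. Hr had log2 fold changes of 3.46 in control and 1.82 in knockout (difference 1.64 ± 0.62, adjusted p = 1). Por had -2.20 and -1.43 (difference -0.77 ± 0.25) and Plin2 1.15 and 0.39 (difference 0.76 ± 0.27), with an adjusted p of 1 for both. Arntl (4.78 and 4.94) and Dbp (-6.04 and -6.02) differed by -0.16 ± 0.45 and -0.02 ± 0.62.

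**Figure D4:**
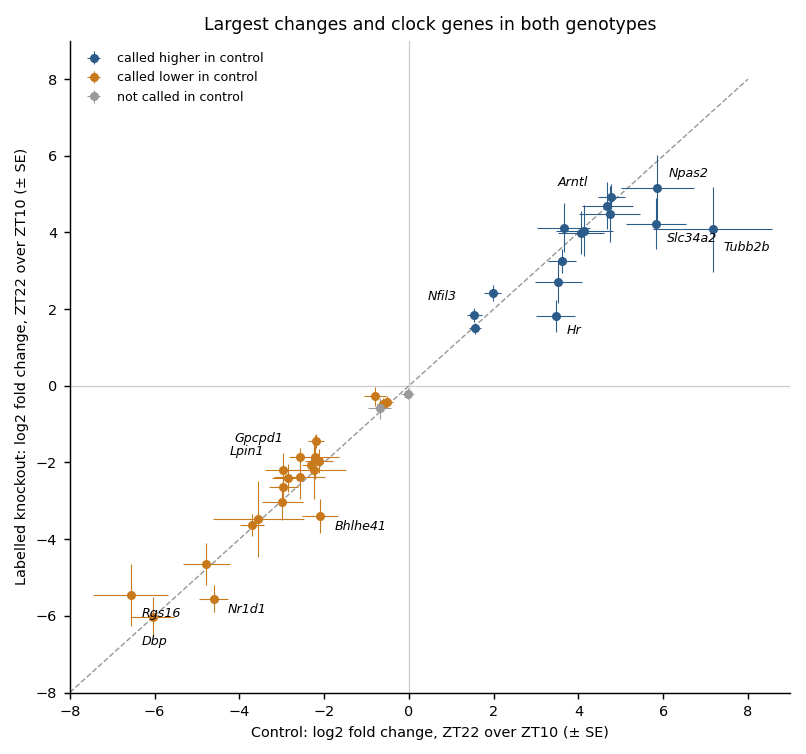
Log2 fold change ZT22 over ZT10 (± SE) in the libraries labelled knockout against that in control liver, for the 24 largest changes and for core clock and clock output genes; the dashed line marks equal values. Points follow the line from Rgs16 and Dbp to Npas2, and Hr and Tubb2b lie below it without a called difference.

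The contrast can be placed among the other pairs of control times 12 h apart, which share no library with it. ZT18 against ZT6 called 2993 genes (16.6%) and ZT14 against ZT2 called 2263 (12.6%). Of the 1097 genes called in both ZT22 against ZT10 and ZT18 against ZT6, 1025 moved the same way; of the 773 shared with ZT14 against ZT2, 688 were opposite, that is, higher at ZT2 than at ZT14 where they were higher at ZT22 than at ZT10. The test of the difference between contrasts called 717 genes (3.98%) against ZT18 over ZT6 and 3466 (19.3%) against ZT14 over ZT2. These counts depend on the direction chosen for each pair. Over all genes the log2 fold changes correlated at 0.293 with ZT18 over ZT6 and at -0.287 with ZT14 over ZT2. The reverse direction, ZT2 over ZT14, was not tested, so the counts do not rank the pairs by likeness.

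Clock genes showed where the ZT22 to ZT10 pair differs from the ZT18 to ZT6 pair. Ciart fell by 4.77 on the log2 scale here and had -0.50 for ZT18 over ZT6 (adjusted p of the difference 0.000511, edgeR). Per2 turned: -0.79 here against 2.17 (adjusted p = 7.98e-06), with its highest control level at ZT14. Clock rose here and had 0.22 in the other pair (adjusted p of the difference 7.45e-05). Nr1d1 and Cry1 did not pass that test, with -4.61 against -5.63 and 1.98 against 2.50 (adjusted p = 0.229 and 0.355). Beyond the clock, Ppp1r3c (2.70 against 0.12, adjusted p = 0.000734), Nampt (-1.40 against 0.84, adjusted p = 6.33e-06) and Hmgcs1 (1.95 against 0.01, adjusted p = 0.00711) also differed, whereas Hspb1 and Abcg5 had adjusted p of 0.926 and 0.743. Of the 12 largest falls, 11 had their highest control level at ZT10, and of the 12 largest rises 8 had theirs at ZT22 and 4 at ZT2. These genes were picked by the same ZT22 to ZT10 difference, which favours a highest level at either time.

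**Figure D5:**
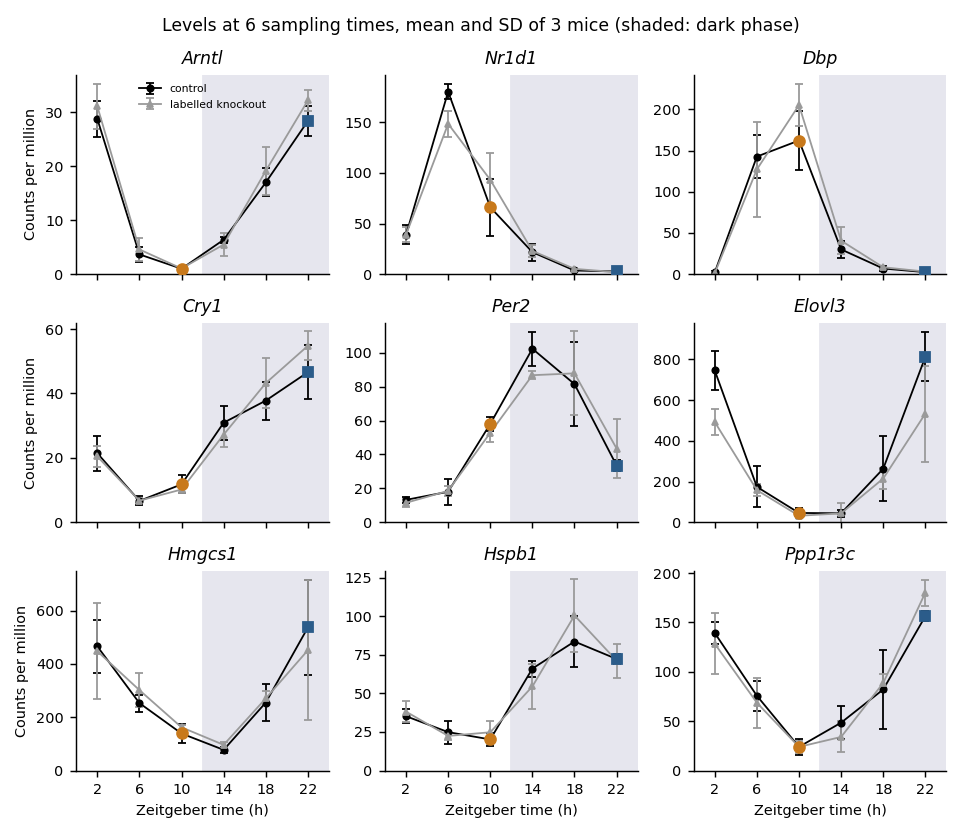
Mean CPM ± SD (3 mice) at 6 sampling times in control (black) and labelled knockout (grey) liver for 9 genes, with the dark phase shaded and control ZT10 (orange circle) and ZT22 (blue square) marked. Arntl, Elovl3, Hmgcs1 and Ppp1r3c stand high at ZT22 and ZT2, Dbp stands high at ZT6 and ZT10, Nr1d1 is highest at ZT6, Per2 at ZT14 and Hspb1 at ZT18.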

How the data were processed

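Liver RNA of 36 mice (12 groups of 3) was sequenced. The authors removed low-quality reads, mapped read pairs to GRCm38 (mm10) by HISAT2 and assigned them to genes by featureCounts as counts (tools and build also per the submitters' processing notes, without versions). They deposited raw counts for 54532 genes; these were used as deposited. The annotation release is not given in the sources used here. Counts shared between paralogues or by genes overlapping on opposite strands cannot be separated.

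Genes with at least 100 counts over 36 libraries were fitted in edgeR 4.0.16 (R 4.3.3; limma 3.58.1) with TMM scaling and 12 groups (24 residual degrees of freedom), tested with glmQLFTest and adjusted by Benjamini-Hochberg over 17994 genes at 0.05. SE is the absolute log2 fold change divided by the square root of F. The code was tested on simulated data. CPM used TMM-scaled library sizes. Single values per mouse were compared by exact two-sided permutation tests (SciPy 1.17.1). Counting intervals (95%, exact binomial) cover counting error only. Replicates are separate mice, and replicate pairs differed by more than sampling noise (chi-square per gene 35.5 to 82.2). Alternatives were DESeq2 1.42.0, RLE scaling, other filters, fewer libraries, robust dispersion, a replicate block and leaving out each of the 6 libraries.

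Named genes were the 12 protein-coding genes with the largest change in each direction (no overlap between groups, mean count 50 or more, adjusted p under 0.05), all core clock genes, up to 4 called members per direction of each other list, and members needed to account for a list. The comparison, the lists and the tests were chosen with earlier results of these data known. A few list members are counted but not reported here by name.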

Additional observations from a re-analysis of the deposited data

How the results depend on the processing

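With 3 mice per group the count of calls depended on which libraries entered. It was 2648 in all 36 libraries, 1635 when only the 6 libraries of the comparison were fitted (fewer degrees of freedom, 1521 shared with the 2648), and 1696 to 2353 with 1 of the 6 left out, lowest without ZT22 mouse c. The other alternatives gave 2176 to 2957. For the control minus knockout difference DESeq2 called 1 gene and edgeR 0 in every setting, including each library left out (lowest 0, highest 0). That gene, Cebpe, was named after its value was seen and had an adjusted p of 1 in edgeR. Counts against ZT18 and ZT6 ran from 532 to 955 and against ZT14 and ZT2 from 2839 to 3763. Of 138 named genes, 91 kept direction and side of the threshold in all 14 alternatives. With each library left out in turn, 94 lost no call, a number that includes Rora and Bhlhe40, which were not called in the main fit. The log2 fold change of Rora, not called, turned from -0.03 to 0.01 without ZT10 mouse c and to 0.036 without ZT22 mouse b, and ran from -0.1 to 0.036 with each library left out.

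Between ZT10 and ZT22 the letters a, b and c showed no pairing of the mice: deviations from the group means of mice with the same letter correlated at 0.05, 0.03 and -0.09. Whether a letter shares an effect over all 12 groups was not tested by these values. A fit with the letter as a replicate block called 2942 genes, 2631 of them among the 2648, and 0 for the difference between genotypes. RLE scaling shifted the median log2 fold change of all genes from -0.0018 to 0.0021. Genes near 0 counts at 1 time, such as Tubb2b and Npas2, have fold changes limited by depth.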

Other observations

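Outside the gene lists and the largest changes, the 10 protein-coding genes with the smallest adjusted p in edgeR's test were picked after their values were seen, and all 10 were higher at ZT22. Cldn1 (chr16:26356642-26371841), encoding the tight junction protein claudin-1, read 19.5, 26.0 and 18.1 CPM at ZT10 and 127, 127 and 132 at ZT22 (log2 fold change 2.60 ± 0.16, adjusted p = 5.52e-12). Chka (chr19:3851773-3894369), the choline kinase that starts phosphatidylcholine synthesis, read 16.4, 12.9 and 17.98 and then 145, 160.2 and 140.4 (3.23 ± 0.27). Grk5, a kinase of G protein-coupled receptors, read 1.59, 1.68 and 1.40 and then 9.53, 11.8 and 12.6 (2.86 ± 0.22). No ZT22 mouse overlapped a ZT10 mouse for any of the 3. The remaining 7 were Trim2, St5, Dtx4, Pnkd, Caprin1, Lrfn3 and Leo1, with log2 fold changes from 1.18 (Caprin1) to 2.90 (Lrfn3), and all 10 were also called higher in the libraries labelled knockout.

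Long intergenic noncoding RNAs were tested for 690 genes, of which 52 were higher and 25 lower at ZT22, beside 1116 higher and 1303 lower of 14193 protein-coding genes. Gm31508 (chr12:28910229-29041874), chosen after its values were seen, read 0.0514, 0.0932 and 0 CPM at ZT10 and 1.79, 1.502 and 1.08 at ZT22. 1700001L05Rik (chr15:83353847-83367282) had the opposite course, with 10.6 in each ZT10 mouse and 3.85, 3.42 and 3.501 at ZT22 (log2 fold change -1.56 ± 0.24, adjusted p = 3.46e-05 in edgeR). Reads from overlapping genes on the other strand cannot be separated in these libraries.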
